A study of Mus musculus with 30 samples.

Results

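MHC class I and antigen processing genes were examined in mouse epiblast stem cells (EpiSCs), a primed pluripotent cell type that resembles the epiblast after implantation, and in definitive endoderm (DE) derived from them. The set was given by name: H2-K1, H2-D1, B2m, Tap1, Tap2, Tapbp, Psmb8, Psmb9 and Nlrc5, 9 of the 29555 genes in each deposited gene table. All 9 passed the filter on low counts in every comparison, so none is missing from the counts below. The study measured RNA by RNA-seq and open chromatin by ATAC-seq. It followed B6 cells into DE and set EpiSCs of several genetic backgrounds side by side.

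The RNA libraries used here were 5 of B6 (C57BL/6) EpiSCs, 4 of B6 DE, 3 of PWK (PWK/PhJ) EpiSCs, 3 of B6.129 F1 EpiSCs, written B6129F1 from here on, and 1 of DBA (DBA/2J) EpiSCs. No genotype change or drug treatment is given for any group. Per the labels, the EpiSCs of every strain grew on feeder cells in N2B27-based medium with Fgf2, ActivinA and the Wnt inhibitor NVP-TNKS656, and were detached with collagenase to keep feeder cells out. DE was induced from EpiSCs with CHIR99201 and ActivinA, then kept in ActivinA and LDN193189, and CXCR4+ cells were enriched with magnetic beads. The labels do not say whether libraries of 1 group come from separate lines, so p-values measure the spread between these libraries, part of which may be technical. DE samples of PWK (3) were not used here.

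Class I molecules display peptides from inside the cell to CD8+ T cells and natural killer cells. A heavy chain, encoded in B6 mice by H2-K1 and H2-D1, pairs with the light chain β2-microglobulin, encoded by B2m. Peptides are cut by the proteasome, pumped into the endoplasmic reticulum by the Tap1 and Tap2 transporter and loaded with the help of tapasin, the product of Tapbp. Psmb8 and Psmb9 encode catalytic subunits of the immunoproteasome, an interferon-induced form. Nlrc5 is the transactivator that drives most of these promoters. Early embryonic and pluripotent cells are known for low class I display. All members but B2m on chromosome 2 and Nlrc5 on chromosome 8 lie in the MHC on chromosome 17, where B6 and 129 mice carry the H2b haplotype and DBA/2 mice H2d.

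The heavy chain genes have close relatives in sequence, and this shows in the DNA before their starts. RefSeq windows (GRCm38.p6, 250 bases before the start) were found for 7 of the 9 members and searched on both strands for 4 motifs; Tap2 and Nlrc5 are named only. The class I kappaB site, whose letters are the capitals in the stretches below, occurred in H2-K1 and H2-D1 and in 0.0852% of 32851 windows of that length. Aligned over 190 bases, the windows of these 2 genes, taken at the first start listed for H2-K1, were identical at 170, or 89.5%. The stretches of 30 bases around the kappaB site, at chr17:34000443-34000472 (minus strand) for H2-K1 and chr17:35262909-35262938 (plus strand) for H2-D1, are shown because they were identical at all 30 bases. Capitals mark the kappaB site.
H2-K1: ggaagcccagggctGGGGATTCCCcatctc
H2-D1: ggaagcccagggctGGGGATTCCCcatctc

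Longer windows are shown for the genes whose start peaks or levels are described below, each 5′ to 3′ in the direction of its gene. Those of H2-D1 (chr17:35262844-35263093, plus strand), B2m (chr2:122147437-122147686, plus strand) and Tap1 (chr17:34187306-34187555, plus strand) end at the base before the RefSeq start. Capitals mark the kappaB site, the CCAAT box (CCAAT, read ATTGG on the other strand) and the interferon-stimulated response element (GAAA, any 2 bases, GAAA). The response element was found in B2m alone among the 7 windows and in 2.98% of all windows. The CCAAT box was found in 6 of the 7, all but Psmb8, against 33.9% of all windows, and the interferon-gamma activated site (TTCNNNGAA) in Psmb8 alone, against 7.02%. No match of these motifs overlapped another. The windows of Tap1 and Psmb9 overlap, since these genes are read away from each other from starts 226 bases apart.
H2-D1: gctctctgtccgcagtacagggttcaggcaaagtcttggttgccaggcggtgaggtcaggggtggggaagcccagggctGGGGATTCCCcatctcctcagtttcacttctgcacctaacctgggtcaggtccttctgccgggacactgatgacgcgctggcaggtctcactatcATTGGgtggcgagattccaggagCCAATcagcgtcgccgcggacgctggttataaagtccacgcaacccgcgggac
B2m: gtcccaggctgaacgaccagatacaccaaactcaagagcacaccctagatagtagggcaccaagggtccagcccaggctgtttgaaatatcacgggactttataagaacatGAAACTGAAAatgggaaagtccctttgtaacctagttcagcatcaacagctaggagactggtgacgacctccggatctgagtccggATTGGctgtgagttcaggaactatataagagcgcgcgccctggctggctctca
Tap1: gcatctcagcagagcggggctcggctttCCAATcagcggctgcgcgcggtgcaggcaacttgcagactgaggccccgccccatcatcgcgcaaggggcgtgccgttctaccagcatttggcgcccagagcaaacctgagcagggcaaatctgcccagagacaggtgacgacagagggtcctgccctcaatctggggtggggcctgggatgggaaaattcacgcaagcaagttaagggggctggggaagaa

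Gene libraries held 22829536 to 66563933 counts in the table of B6 EpiSCs and DE and 24529054 to 29947841 in the table of all EpiSCs. Levels are given as CPM, the usual unit of counts relative to library size, here with TMM-scaled sizes, and since gene lengths are not in the files, levels are compared between libraries and not between genes. Calls were made with edgeR (quasi-likelihood F test, p-values adjusted by Benjamini and Hochberg's method over every gene tested, threshold 0.05), and this test stands behind every adjusted p below unless another is named. The DE label was checked on 7 endoderm markers, all 7 of which rose in DE. Of 7 epiblast stem cell markers, 4 fell in DE and 2 rose. The sum of these epiblast markers overlapped between the states, at 2984.5 to 3981 CPM in DE and 2753 to 4096 in EpiSCs. Libraries that stood apart were DE replicate 2, which had the highest H2-K1, H2-D1, B2m, Tap2, Tapbp, Psmb8 and Psmb9 levels of the 4 DE libraries, and DE replicate 51. In the latter, chromosome 8, which holds Nlrc5, lay 0.49 above the other DE libraries on the log2 scale, relative to the median gene, in RNA and 0.48 in ATAC, against −0.11 to −0.17 in the others. Feeder fibroblast markers (15 genes) summed to 86.9 to 2946 CPM in B6 EpiSCs and 123 to 333 in DE, with the highest DE value in replicate 2. In bulk RNA, fewer cells of a type and less RNA per cell cannot be told apart.

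In DE, the light chain, one transporter subunit and one immunoproteasome subunit were lower than in B6 EpiSCs, and the heavy chains were not. B2m fell by 1.42 on the log2 scale, Tap2 fell by 1.74 and Psmb9 fell by 1.61. No member rose, and 6 of 9 were not called. The background was wide: 62% of the 14085 genes tested were called, 31.5% higher and 30.6% lower, so 3 of 9 members is not a large share. The median log2 change of the 9 genes was −0.44, beside −0.01 over all genes.

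**Figure D1:**
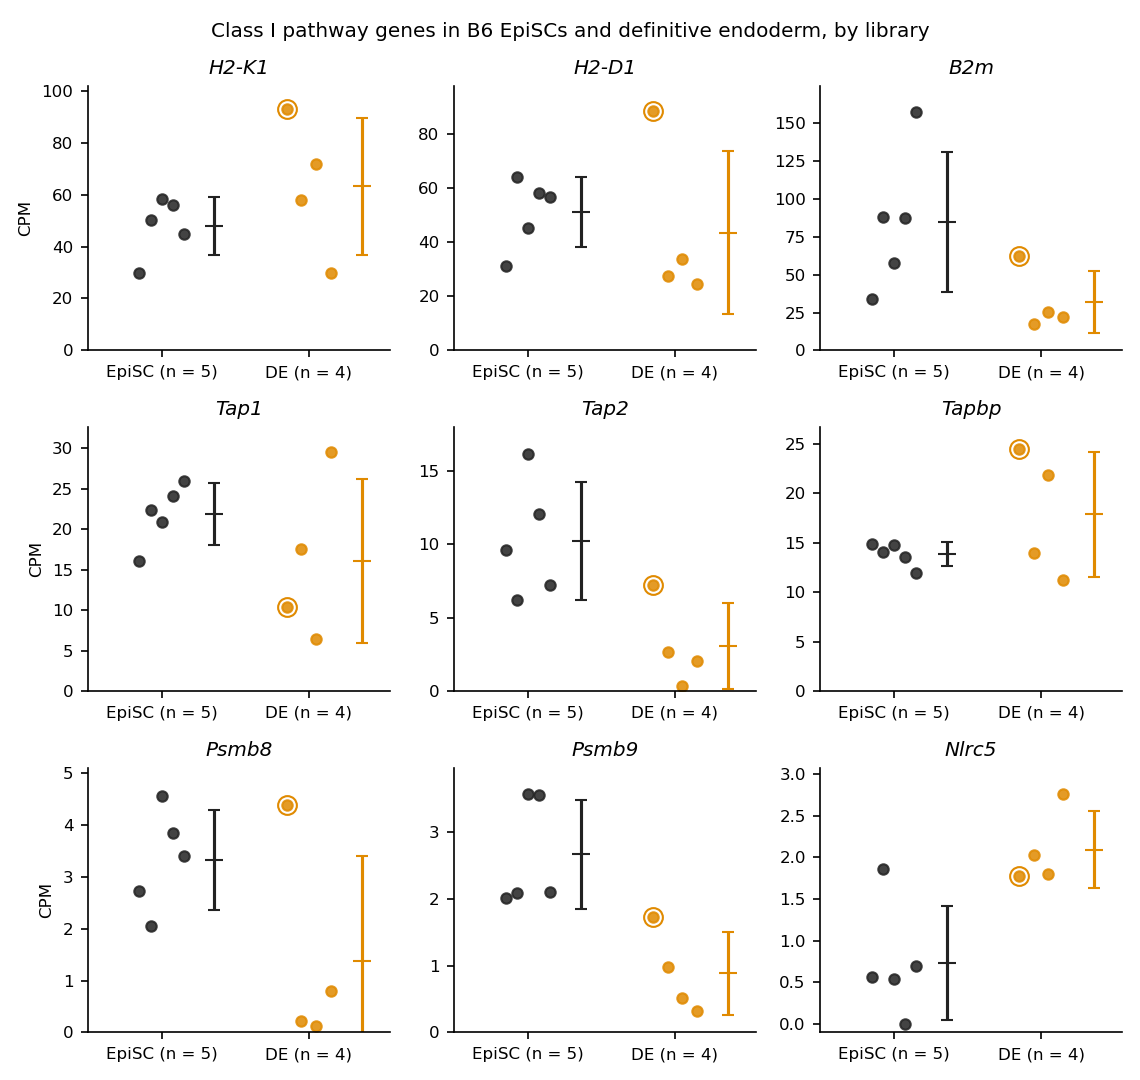
CPM of each of the 9 genes (vertical axes, linear, from about 0) in 5 B6 EpiSC libraries (black) and 4 B6 DE libraries (orange). Points are libraries, the bars give mean ± SD and stop at the axis where they reach below 0, and the ringed point is DE replicate 2. Only the Psmb9 groups are fully apart, and the ringed library is the highest of the DE points for 7 genes.

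The heavy chains present the peptide. H2-K1 stood at 92.9, 58.1, 71.8 and 29.9 CPM in DE replicates 2, 4, 44 and 51, and at 29.9, 50.2, 58.3, 56.1 and 45.0 in EpiSC replicates 1, 2, 4, 44 and 51. DE held values from the bottom of the EpiSC range to well above it, and the log2 change was 0.40 ± 0.30 (SE; adjusted p = 0.272). Without DE replicate 51, whose value is the lowest, H2-K1 rose by 0.63 (adjusted p = 0.0434). H2-D1 stood at 88.5, 27.4, 33.9 and 24.5 CPM in DE, in the same order, and at 31.4, 64.1, 45.1, 58.2 and 56.6 in EpiSCs. DE replicate 2 was the highest of all 9 libraries and 2 of the other DE libraries were the lowest, giving a log2 change of −0.23 ± 0.38 (adjusted p = 0.612). Without DE replicate 2, H2-D1 fell by 0.83 (adjusted p = 0.0126).

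B2m, the light chain without which heavy chains are not held at the surface, stood at 62.6, 17.6, 25.3 and 22.1 CPM in DE and at 34.2, 88.4, 57.4, 87.3 and 157 in EpiSCs. The groups overlapped only through DE replicate 2, which lay above EpiSC replicates 1 and 4. The change of −1.42 ± 0.48 had an adjusted p of 0.0252. That call was lost without DE replicate 4, 44 or 51 or EpiSC replicate 51 (−1.21, −1.33, −1.28 and −1.08, highest adjusted p = 0.0677), and without DE replicate 2 the change was −1.96 (adjusted p = 0.00399). The feeder marker sum moves with B2m among EpiSC libraries, as given below, and 11 of the 15 feeder markers also fell in DE while 1, Pdgfra, rose. Their part in the lower B2m of DE was not tested.

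Tap1 and Tap2 form the peptide pump. Tap2 stood at 7.22, 2.70, 0.352 and 2.05 CPM in DE and at 9.597, 6.21, 16.2, 12.04 and 7.24 in EpiSCs. Again DE replicate 2 alone reached the EpiSC range, and the change was −1.74 ± 0.67 (adjusted p = 0.0423). This call ended without DE replicate 4 or 51 or EpiSC replicate 1, 4 or 44 (−1.68, −1.59, −1.77, −1.53 and −1.69, highest adjusted p = 0.0982). Tap2 was not called either with the replicate number as a block, a fit over only the libraries whose number occurs in both groups. Without DE replicate 2 the Tap2 change was −2.56 (adjusted p = 0.00614). Tap1 spread widely in DE, at 10.5, 17.6, 6.53 and 29.6 CPM, around EpiSC values of 16.0, 22.4, 20.9, 24.1 and 26.0. Its change was −0.44 ± 0.38 (adjusted p = 0.328), and without DE replicate 51, the highest of the 9 libraries, −0.92 (adjusted p = 0.0327). Tapbp, the loading chaperone, was at 24.5, 13.97, 21.8 and 11.3 CPM in DE and between 11.97 and 14.9 in the 5 EpiSC libraries. Its DE values lay on both sides of the narrow EpiSC range, and the change was 0.37 ± 0.24 (adjusted p = 0.210).

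The immunoproteasome subunits cut peptides to the ends that class I grooves prefer. Psmb9 stood at 1.73, 0.979, 0.508 and 0.319 CPM in DE and at 2.01, 2.09, 3.57, 3.56 and 2.11 in EpiSCs. It was the one member whose groups did not overlap, where 55.6% of all genes tested had groups that did not, and its change was −1.61 ± 0.55 (adjusted p = 0.0269). The Psmb9 call was lost without DE replicate 44 or 51 or EpiSC replicate 4 or 44 (−1.43, −1.32, −1.49 and −1.49, highest adjusted p = 0.0608), and was −2.13 (adjusted p = 0.00625) without DE replicate 2. Psmb8 had 86, 13, 3 and 53 counts in DE, or 4.37, 0.216, 0.117 and 0.804 CPM, against 2.73, 2.06, 4.55, 3.85 and 3.40 CPM in EpiSCs. Of the DE libraries only replicate 2 was within the EpiSC range, and the change was −1.30 ± 0.89 (adjusted p = 0.229). Without replicate 2, Psmb8 fell by 3.07 (adjusted p = 0.00373).

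Nlrc5 was at low levels in every B6 library. It had 35, 122, 46 and 182 counts in DE, or 1.78, 2.02, 1.80 and 2.76 CPM. In EpiSCs it had 15, 49, 15, 0 and 19 counts, or 0.569, 1.87, 0.541, 0 and 0.702 CPM. DE values were even and above 4 of the 5 EpiSC libraries, and the change of 1.51 ± 0.86 was not called (adjusted p = 0.151). The highest value was in DE replicate 51, the library with the raised chromosome 8. The part of that chromosome in the Nlrc5 level was not tested.

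Leaving out DE replicate 2 took the number of members lower in DE from 3 to 5, with H2-D1 and Psmb8 added and none higher. Its place was not shared by every member, since it had the second-lowest Tap1 and the lowest Nlrc5 of the DE libraries. Within the 9 B6 libraries, Tap2 varied with Psmb8 (Pearson r = 0.913, a description over 9 libraries of 2 cell states) and with Psmb9 (r = 0.907), and Tap1 ran against Tapbp (r = −0.915). Among 10251 other genes, those most like the mean of the centred log2 levels of the 9 members were Rpl8, Rplp2, Eef1g, Rpl13a and Rpl19 (r = 0.979, 0.974, 0.974, 0.969 and 0.965). These are 4 ribosomal protein genes and 1 elongation factor gene, and the libraries compared share depth and cell state with the members.

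**Figure D2:**
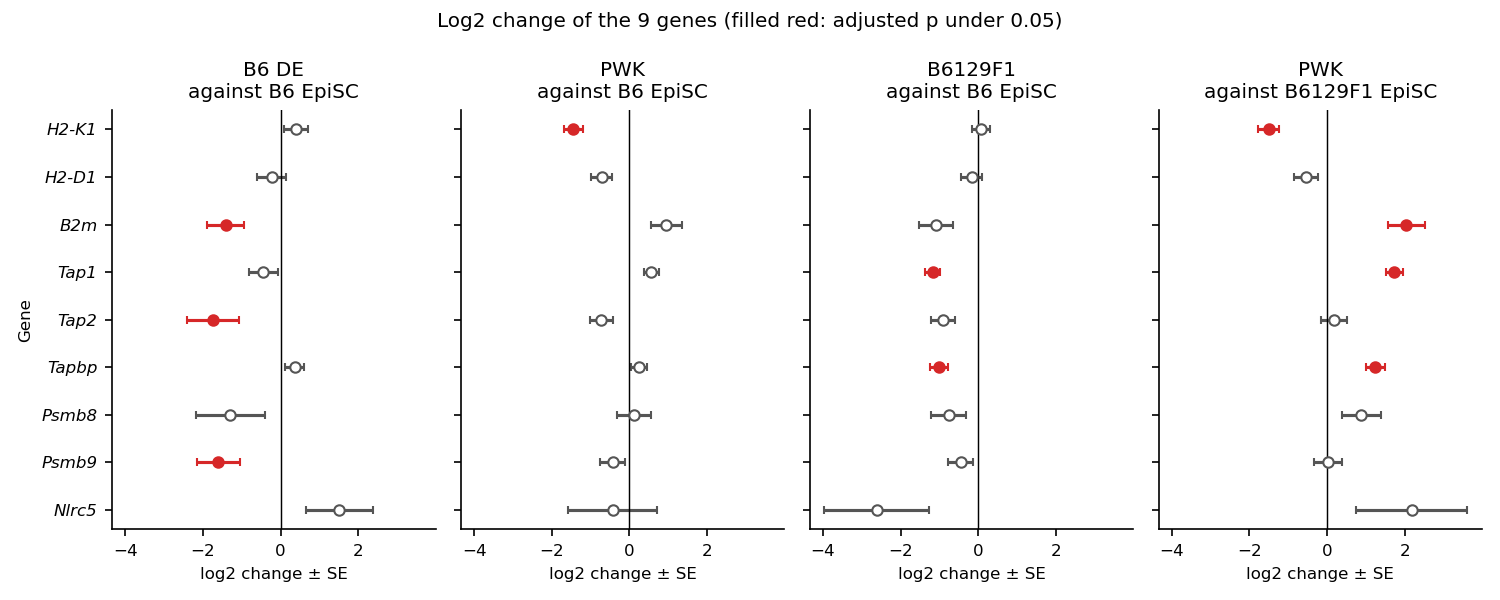
Log2 change (horizontal axes) with its standard error for each gene (vertical axis) in 4 comparisons by edgeR, filled red where the adjusted p was under 0.05. B2m, Tap2 and Psmb9 were called lower in DE, H2-K1 lower in PWK against both other strains, and Tap1 and Tapbp lower in B6129F1 than in B6 and in PWK; B2m was higher in PWK than in B6129F1.

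Class I genes are near-identical in parts, so how reads are divided among them bears on H2-K1 and H2-D1. The counts of 21 class I genes, H2-K1 and H2-D1 included, were therefore summed. The sum ranged from 65.9 to 220.8 CPM in DE and from 115 to 181 in EpiSCs, with a change of −0.32 (adjusted p = 0.382). Without DE replicate 2, the highest, the sum fell by 0.70 (adjusted p = 0.0195). H2-K1 took 50.4% ± 7.91 (SD, n = 4) of these counts in DE and 29.8% ± 3.96 (n = 5) in EpiSCs, and the groups did not overlap (42.1 to 58.1% against 25.9 to 35.9%). The genes other than H2-K1 and H2-D1 took 16.8% ± 1.56 in DE and 38.6% ± 4.63 in EpiSCs, again with no overlap. Each of these 2 differences had p = 0.0159 in a two-sided exact permutation test over libraries, the smallest that 4 against 5 can give, or 0.0476 adjusted over 6 such tests. Groups that do not overlap give this smallest p in any case, so it adds nothing to the lack of overlap. The tests were added after the data were seen, and the 2 shares are parts of the same total.

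**Figure D3:**
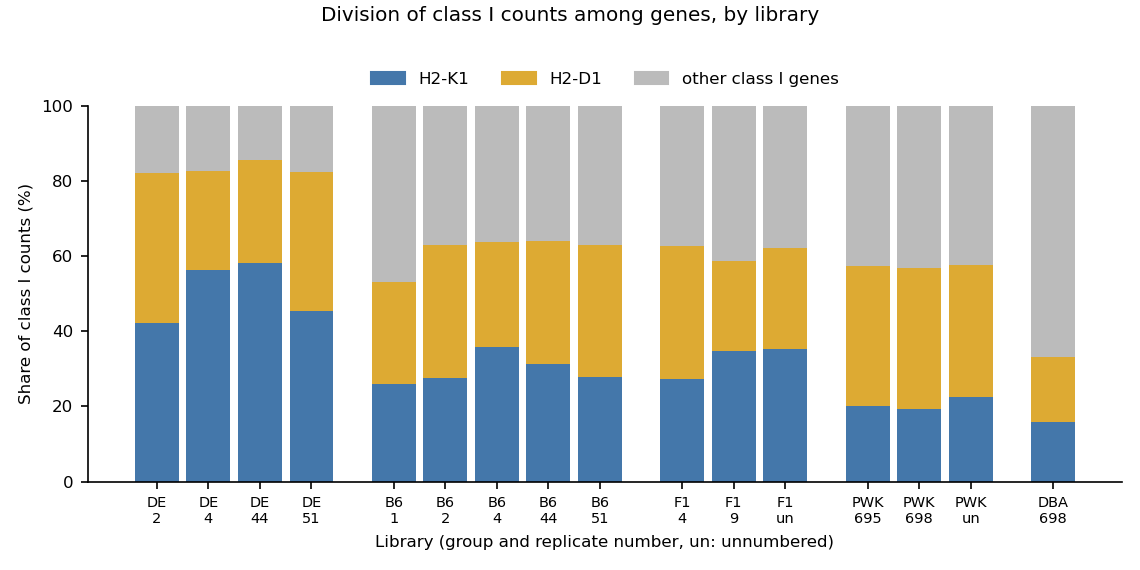
Share of the summed counts of 21 class I genes (vertical axis, %) taken by H2-K1 (blue), H2-D1 (yellow) and the other class I genes (grey) in each library (horizontal axis). The grey share is 14.5 to 17.8% in the 4 DE libraries, 35.9 to 46.8% in B6 EpiSCs and 66.9% in the DBA library, and the blue share is lowest in the PWK and DBA libraries.

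Among the other class I genes tested, H2-Q4, a gene of the Qa region, had the lowest log2 change. It stood at 2.95, 1.63, 1.17 and 0.349 CPM in DE against 20.1 to 29.7 in the 5 EpiSC libraries, a change of −4.02 ± 0.52 (adjusted p = 8.82e-05). Of the 11 other class I genes tested, 4 fell in DE and 1 rose, where 30.6% of all genes tested were lower and 31.5% higher. Also lower were H2-Q7 (−1.62), H2-Q10 (−3.38) and H2-Bl (−1.92), and H2-T24 rose, with 1.83 to 2.31 CPM in DE and 0 to 0.800 in EpiSCs (2.66, adjusted p = 0.0184). H2-T24 passed the count filter only through DE and H2-Q10 only through EpiSCs, the groups where they are high. A difference was therefore built into their being tested. H2-T22 (−0.84, adjusted p = 0.0792), H2-T23 (−0.47, adjusted p = 0.291), H2-Q2, H2-M3, H2-M5 and Mr1 were not called.

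The wider pathway held genes that rose and genes that fell in DE, where 31.5% of all genes tested were higher and 30.6% lower. Of 16 genes of peptide supply and loading, 6 rose and 3 fell, with a median of 0.38. The endoplasmic reticulum chaperones Hspa5 (2.02 ± 0.12) and Pdia3 (1.39 ± 0.12) rose, as did Psmb5 (1.24 ± 0.23), the constitutive counterpart of Psmb8. The trimming peptidases Erap1 (−2.66 ± 0.31) and Lnpep (−3.26 ± 0.20) fell, and Tpp2 (−0.50 ± 0.20) fell. Of 21 regulators, 4 rose and 11 fell, with a median of −0.76. Nfya, the DNA-binding subunit of the CCAAT-box factor NF-Y, fell by 4.69, while its partner Nfyc rose by 0.79. Nfkb1 fell by 2.35 while Rela, another NF-κB subunit, rose by 1.78. Rfxap, part of the RFX complex at class I and class II promoters, rose by 1.72.

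Interferon-stimulated genes were lower in DE as a list: 21 of 26 tested fell and none rose, counts that were the same without adjustment of p and in DESeq2. Their median was −4.13, or −4.07 with the 2 genes at 3 counts or fewer in each DE library set to their bound. Their summed level was 81.6 to 164 CPM in DE and 433 to 878 in EpiSCs. The receptor genes Ifngr1 (0.58), Ifngr2 (1.17) and Ifnar2 (0.70) rose, and the signalling genes Jak1 (−0.41), Ptpn11 (−1.38) and Socs3 (−1.25) fell, among 10 tested. Of 51 other genes within the MHC, 15 rose and 15 fell, with a median of 0.01, where 31.5% of all genes tested were higher and 30.6% lower. The bearing of the members' position within the MHC was not tested. Immune cell markers (10 genes) summed to 2.17 to 2.59 CPM in DE and 4.01 to 6.93 in EpiSCs, with 4 to 7 of the 10 at 0.

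Open chromatin at the start of B2m was lower in DE, as its RNA was, and 2 peaks inside Nlrc5 had 0 to 3 counts in each EpiSC library. ATAC libraries held 3751526 to 9311622 counts in peaks in the B6 table, and 23 peaks lay in or within 2 kb of 8 members, of which 18 were tested. Of these, 2 rose and 2 fell, where 57.6% of 113870 peaks were called, 32.6% higher and 25.0% lower. Groups did not overlap for 3 of the 18, against 53.8% of all peaks. The peak over the B2m start (chr2:122147500-122147762), which lies over the bases shown above, had 18.9, 10.9, 17.9 and 15.3 CPM in DE replicates 2, 4, 44 and 51 and 21.9, 18.3, 31.4 and 32.7 in EpiSC replicates 1, 4, 44 and 51. Only DE replicate 2 reached above the lowest EpiSC library, and the peak fell by 0.72 ± 0.22 (adjusted p = 0.00813). The peaks over the starts of H2-K1 (chr17:34000234-34000511, −0.26, adjusted p = 0.257), of Tapbp (0.41, adjusted p = 0.0961) and just before that of H2-D1 (chr17:35262858-35263093, −0.55, adjusted p = 0.0586) were not called. Neither was the peak shared by Tap1 and Psmb9 (chr17:34187242-34187551, 0.34 ± 0.18, adjusted p = 0.112).

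The other called peaks lay inside Nlrc5, at chr8:94434335-94527272. The peak at chr8:94515353-94515493 had 4.94, 3.62, 5.30 and 4.61 CPM in DE and 0.320, 0.3005, 0.765 and 0.310 CPM, or 2 to 3 counts, in EpiSCs (adjusted p = 6.99e-06). Another, at chr8:94524324-94524391, had 1.85 to 2.88 CPM in DE and 0 to 0.200 in EpiSCs (adjusted p = 5.44e-05). One more, at chr8:94521642-94521762, fell by 1.51 ± 0.63 (adjusted p = 0.0447). The strongest Nlrc5 peak by CPM, at chr8:94492044-94492321, was not called (0.24, adjusted p = 0.335). These 2 raised peaks passed the count filter only through DE, where they are high, so a difference was built into their being tested. Both were high in every DE library, those without the chromosome 8 shift included. At 10 counts or more in every library, 13 peaks were left and 1, that of B2m, was called.

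Among EpiSCs, H2-K1 was lower in PWK than in B6 and in B6129F1, and it was the one member edgeR called in the comparison of PWK with B6. There, 26.5% of 14822 genes were called, 12% higher and 14.5% lower, and 1 of 9 members was. DESeq2 called 4 of the 9, with B2m and Tap1 higher and H2-K1 and H2-D1 lower, and without adjustment edgeR gave 2 higher and 3 lower. The median of the 9 genes was −0.43 beside −0.01 over all genes. Groups did not overlap for 2 members, H2-K1 and Tap1, against 32.1% of all genes. Against B6129F1, 3 members rose in PWK (B2m, Tap1 and Tapbp) and 1 fell, with 40.0% of genes called, 20.7% higher and 19.4% lower, and 4 members' groups did not overlap, against 62.5% of genes. In B6129F1 against B6, Tap1 and Tapbp fell and none rose, where 2.84% of genes were called, 1.34% higher and 1.50% lower. With only these 2 groups in the fit, neither was called (adjusted p = 0.103 for both) and no other member was, with 4 lower and 0 higher without adjustment, while DESeq2 called 4 lower. The median log2 change of the 9 genes was 0.88 in PWK against B6129F1 and −0.91 in B6129F1 against B6, beside 0.01 and −0.03 over all genes. The comparisons with B6 share the 5 B6 libraries, and that of PWK with B6129F1 shares its libraries with both.

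**Figure D4:**
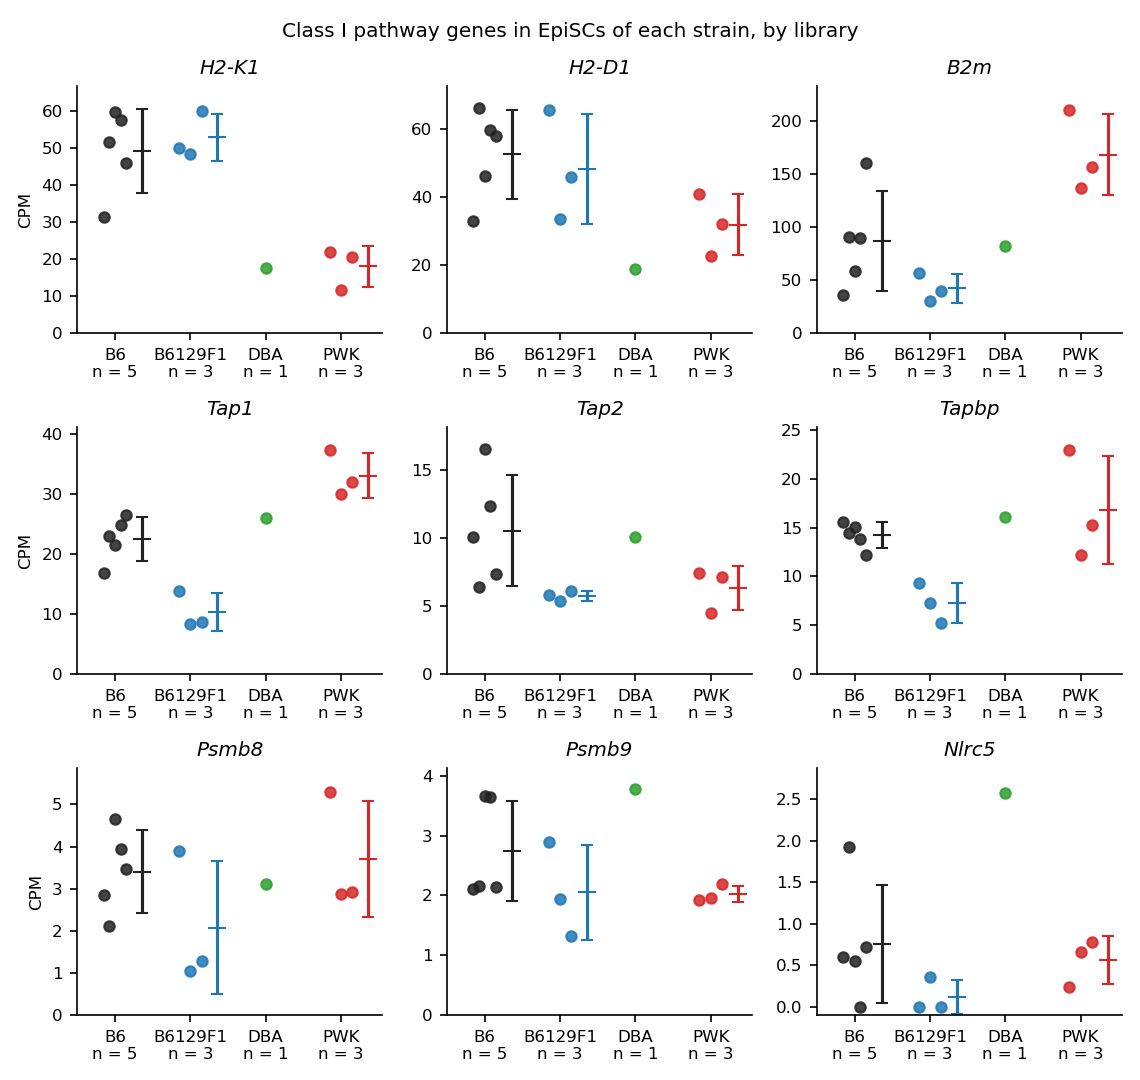
CPM of each of the 9 genes (vertical axes, linear) in EpiSC libraries of B6 (n = 5, black), B6129F1 (n = 3, blue), DBA (n = 1, green) and PWK (n = 3, red). Points are libraries and bars give mean ± SD. H2-K1 is low in PWK and DBA, B2m and Tap1 are high in PWK, and Tap1, Tap2 and Tapbp are low in B6129F1.

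H2-K1 had 21.9, 11.6 and 20.5 CPM in the PWK libraries BioRep695 and BioRep698 and the one placed by strain. The column of that library matches no replicate name of the labels. B6 replicates 1, 2, 4, 44 and 51 had 31.3, 51.7, 59.6, 57.4 and 45.8, and B6129F1 replicates 4, 9 and the unnumbered library had 50.04, 48.5 and 59.96. No PWK library reached the lowest of either other strain. H2-K1 fell by 1.44 ± 0.25 in PWK against B6 (adjusted p = 0.00176) and by 1.50 ± 0.27 against B6129F1 (adjusted p = 0.00172), and it was near B6 in B6129F1 (0.06, adjusted p = 0.910). H2-D1 had 40.7, 22.7 and 32.1 CPM in the PWK libraries, in the same order, 32.9, 66.0, 46.2, 59.6 and 57.7 in B6 and 65.4, 33.4 and 45.7 in B6129F1. These values overlapped, and H2-D1 was not called in PWK against B6 (−0.72 ± 0.28, adjusted p = 0.0813), in PWK against B6129F1 (−0.55, adjusted p = 0.180) or in B6129F1 against B6 (−0.17, adjusted p = 0.754). Without B6 replicate 1, the lowest of the B6 libraries, H2-D1 fell by 0.85 in PWK against B6 (adjusted p = 0.0315).

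DBA, with 1 library and not tested here, was low for both heavy chains. H2-K1 had 468 counts there (17.5 CPM, log2 ratio to the B6 mean −1.47) and was second-lowest of the 12 EpiSC libraries. H2-D1 had 503 counts (18.8 CPM, −1.46) and was the lowest of the 12. Of 12797 genes, 6.49% differed from the B6 mean by over 2-fold in this library, 2.86% higher and 3.63% lower. Set against the mean of the other B6 libraries in the same way, B6 replicates 1, 2, 4, 44 and 51 gave 8.55, 4.68, 5.52, 2.26 and 8.43%. Of the 9 members, 3 passed 2-fold: these 2, lower, and Nlrc5, higher.

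Whether a low H2-K1 count means little RNA or reads placed elsewhere was examined from the other class I genes. The summed class I counts were 60.6 to 109.0 CPM in PWK, 120.7 to 186.8 in B6 and 139 to 184 in B6129F1. PWK did not overlap either, and its sum fell by 0.91 ± 0.20 against B6 (adjusted p = 0.00646) and by 0.87 ± 0.21 against B6129F1 (adjusted p = 0.00923). The genes other than H2-K1 and H2-D1 summed to 37.1 ± 10.2 CPM (SD, n = 3) in PWK and 62.4 ± 4.92 (n = 5) in B6. Reads that matched none of these genes, or several, were not examined. In DBA the sum was 109.6 CPM, also under every B6 library, but the genes other than H2-K1 and H2-D1 took 66.9% of it. That share was 38.6% ± 4.63 (SD, n = 5; highest 46.8%) in B6, 38.8% in B6129F1 and 42.8% ± 0.459 (n = 3) in PWK. In CPM these other genes summed to 73.3 in DBA, above the highest B6 library at 69.1, whereas in PWK they were below every B6 library.

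Single class I genes changed both ways in PWK. In PWK against B6, of 14 other class I genes tested, H2-Q2 and H2-Q6 rose and H2-Q4, H2-Q7, H2-Q10 and H2-T22 fell. Over all genes tested, 12% were higher and 14.5% lower. H2-Q4 was at 9.49, 5.86 and 9.605 CPM in PWK and 21.1 to 30.5 in B6 (−1.57 ± 0.19, adjusted p = 0.000207), and H2-T22 at 12.3, 6.41 and 9.92 against 19.7 to 24.7 (−1.21 ± 0.21, adjusted p = 0.00167). H2-Q6 had 0 to 3 counts in each B6 library, 82, 28 and 73 in PWK and 107 in DBA, and was at least 19.8-fold higher in PWK against a floor of 3 counts in each B6 library. In this comparison H2-Q6 passed the count filter only through PWK, where it is high, so a difference was built into its being tested. In DBA, H2-Q1 had 48 counts against 0 or 1 in each B6 library and H2-T10 had 59 against 2 to 8. H2-Q10 stood at 5.64 CPM in DBA, above the other 11 EpiSC libraries, and H2-Bl at 1.27, below all of them. In B6129F1 against B6 none of the 14 was called by edgeR, and DESeq2 called 2 higher and 1 lower. Without adjustment, edgeR's p was under 0.05 for 2 higher and 2 lower. H2-Bl stood at 9.44, 7.17 and 10.4 CPM in B6129F1 replicates 4, 9 and the unnumbered library. B6 had 1.51 to 6.76, so these groups did not overlap, as for 14.5% of all genes.

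The ratio of H2-K1 to H2-D1 counts, which depends on how reads are split between these genes, was 0.783 to 1.29 in B6, 0.765 to 1.45 in B6129F1, 0.512 to 0.637 in PWK, 0.930 in DBA and 1.05 to 2.12 in DE. The PWK ratios lay below all others. H2-K1 took 20.6% of the class I counts in PWK against 29.8% in B6, with no overlap (exact permutation p = 0.0357, two-sided, or 0.0714 adjusted over 6 tests). This p is the smallest that 3 against 5 can give, and groups with no overlap give it in any case. The share of the other genes overlapped (p = 0.143, two-sided exact permutation test). The 51 other genes of the MHC, which lie in the same divergent region but are not class I or II, gave 0 higher and 6 lower in PWK, with a median of −0.08. Over all genes tested against B6, 12% were higher and 14.5% lower in PWK. Without adjustment 0 were higher and 12 lower, and DESeq2 called 0 higher and 8 lower. How the authors treated reads that match several class I genes, and how non-B6 alleles align to the mm10 genome, is not given in the sources used here. Mapping and RNA level therefore cannot be told apart outside B6 for H2-K1, H2-D1 or the other class I genes.

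Chromatin at the heavy chain starts gave a second look at PWK and DBA. The peak over the H2-K1 start had 25.9 and 19.7 CPM in 2 PWK libraries, 15.1, 20.1, 20.9 and 20.4 in 4 B6 libraries and 28.6 in DBA. The PWK values lay within and above the B6 range (0.27 ± 0.21, adjusted p = 0.591), while the RNA of H2-K1 was lower in PWK. At the H2-D1 start the change in PWK was 0.13 (adjusted p = 0.885), with 24.4 to 30.5 CPM in PWK and 18.0 to 44.5 in B6, and DBA stood at 49.6 CPM. How ATAC reads were placed at these 2 similar starts was not examined. B2m (0.22, adjusted p = 0.689) and the Tap1 and Psmb9 peak (−0.08, adjusted p = 0.889) were not called either. Of 25 peaks tested near the 9 members, 1 fell in PWK and none rose, where 5.11% of 137667 peaks were called, 1.42% higher and 3.68% lower. Without adjustment 2 were higher and 1 lower, and groups did not overlap for 3 of the 25, against 26.3% of all peaks. The one that fell, inside Tapbp at chr17:33920324-33920524, had 5.14 and 8.68 CPM in PWK, 19.4, 21.997, 18.1 and 17.8 in B6 and 15.7 in DBA (−1.43 ± 0.27, adjusted p = 0.00594). Near the 21 summed class I genes, H2-K1 and H2-D1 included, 31 peaks within 2 kb were tested in PWK against B6. None rose and 4 fell, where 3.68% of all peaks were lower, with a median of −0.10 beside 0.04 over all peaks. How read mapping bears on these 4 was not tested.

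B2m, the one light chain gene, lies outside the MHC and, among the strain comparisons in edgeR, was called between PWK and B6129F1 only. It had 210.9, 136.6 and 157.2 CPM in PWK, 35.8, 91.0, 58.7, 89.4 and 160.2 in B6, 57.1, 29.8 and 39.7 in B6129F1 and 82.4 in DBA. PWK was above 4 of the 5 B6 libraries and above all of B6129F1. B2m rose by 2.04 ± 0.48 in PWK against B6129F1 (adjusted p = 0.00800), and was not called in PWK against B6 (0.95 ± 0.40, adjusted p = 0.108) or in B6129F1 against B6 (−1.09 ± 0.43, adjusted p = 0.159). Without B6 replicate 51, the highest B6 library, B2m was higher in PWK than in B6 by 1.30 (adjusted p = 0.0151), and without B6 replicate 1, the lowest, it fell by 1.25 in B6129F1 (adjusted p = 0.0438).

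The B2m level ran with the feeder fibroblast markers. These 15 genes summed to 2440 to 3136 CPM in PWK, 91.0 to 3000 in B6, 162 to 246 in B6129F1 and 1555 in DBA, and none of the 15 was at 0 in any EpiSC library. All 15 rose in PWK against B6129F1, with a median of 3.70, where 20.7% of all genes were higher. None was called by edgeR against B6, where without adjustment 2 were higher in PWK and 12 lower in B6129F1, and DESeq2 called 1 higher and 11 lower. Over the 12 EpiSC libraries on the log2 scale, B2m and the marker sum had Pearson r = 0.959 (permutation p = 1e-05, the smallest that the resampling can give; 9e-05 adjusted over the 9 members) and Spearman rho = 0.951 (adjusted permutation p = 0.000135). Without the 2 libraries farthest from the median sum, B6 replicate 1 and B6129F1 replicate 9, r was 0.949, and with each strain's mean removed it was 0.926 over 11 libraries. The permutations, for B2m and for the other members below, shuffled all 12 libraries across strains. Their p therefore takes in differences between strains, and no p was computed within strains. The lowest B2m of B6 was in replicate 1, with the lowest marker sum, and its highest in replicate 51, with the highest. Fibroblasts also express B2m, and the part of feeder cells in these B2m levels was not tested.

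Tap1 had 37.3, 29.9 and 31.9 CPM in PWK, 16.8, 23.1, 21.4, 24.7 and 26.5 in B6, 13.9, 8.25 and 8.63 in B6129F1 and 26.0 in DBA. The 3 strains with replicates did not overlap, with PWK highest and B6129F1 lowest. The step from B6129F1 to PWK was 1.73 ± 0.22 (adjusted p = 0.000277) and that from B6 to B6129F1 was −1.17 ± 0.20 (adjusted p = 0.0272), while PWK against B6 fell just outside the threshold (0.56 ± 0.19, adjusted p = 0.0514). The B6129F1 call was lost without B6 replicate 44 (−1.14) or without B6129F1 replicate 4 (−1.45), replicate 9 (−1.05) or the unnumbered library (−1.06), with a highest adjusted p of 0.164. Without B6 replicate 51, Tap1 was higher in PWK than in B6 by 0.63 (adjusted p = 0.0330). Tap1 also ran with the feeder sum (r = 0.857, adjusted permutation p = 0.00117, and rho = 0.937, adjusted permutation p = 0.000135; r = 0.917 without the same 2 libraries and 0.697 within strains). For the other 7 members the adjusted permutation p was 0.189 or more, H2-K1 included (r = −0.51). With strain means removed, r was 0.484 for H2-K1, of the opposite sign, and 0.687 for H2-D1, close to that of Tap1, and lay between −0.310 and 0.107 for the other 5 members. The feeder markers' part in the strain differences of Tap1 was not tested.

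**Figure D5:**
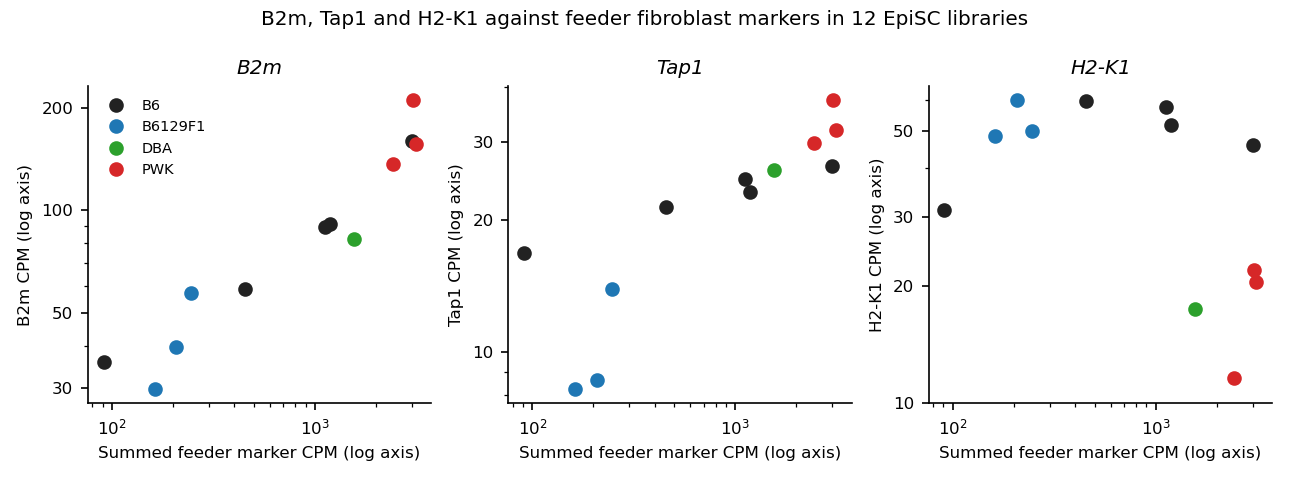
B2m, Tap1 and H2-K1 levels (vertical axes, CPM, log axes) against the summed CPM of 15 feeder fibroblast markers (horizontal axes, log axes) in the 12 EpiSC libraries, coloured by strain. B2m and Tap1 are low where the marker sum is low, in B6129F1 and B6 replicate 1, and H2-K1 shows no such order, with the PWK and DBA libraries low at high marker sums.

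Tapbp was lowest in B6129F1, at 9.33, 7.32 and 5.27 CPM, against 15.6, 14.5, 15.1, 13.9 and 12.2 in B6, 23.006, 12.2 and 15.3 in PWK and 16.1 in DBA. B6129F1 did not overlap the others. Tapbp fell by 1.00 ± 0.23 in B6129F1 against B6 (adjusted p = 0.0471) and was 1.25 ± 0.25 higher in PWK than in B6129F1 (adjusted p = 0.00331). It was not called between PWK and B6 (0.25, adjusted p = 0.428). The B6129F1 call was lost without any 1 of 7 of the 8 libraries, all but B6 replicate 1, with changes from −1.21 to −0.81 and a highest adjusted p of 0.194. Tap2 had 5.83, 5.38 and 6.10 CPM in B6129F1, below all B6 values of 10.0, 6.39, 16.5, 12.3 and 7.38, but was not called (−0.91 ± 0.30, adjusted p = 0.109). In B6129F1 against B6, the groups of 3 members, Tap1, Tap2 and Tapbp, did not overlap, where 14.5% of all genes did not. Tap2 was at 7.46, 4.495 and 7.11 CPM in PWK, within or below the B6 range (−0.72 ± 0.30, adjusted p = 0.102), and without B6 replicate 2 it fell by 0.85 in PWK (adjusted p = 0.0461).

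The immunoproteasome subunits showed no strain call. Psmb8 had 5.29, 2.87 and 2.93 CPM in PWK, 2.12 to 4.65 in B6, 3.90, 1.04 and 1.29 in B6129F1 and 3.10 in DBA, with changes of 0.13 (adjusted p = 0.855) in PWK and −0.76 (adjusted p = 0.337) in B6129F1 against B6. Against B6129F1, Psmb8 in PWK was 0.88 higher (adjusted p = 0.182), and 1.71 higher without B6129F1 replicate 4 (adjusted p = 0.0170). Psmb9 stood at 1.93, 1.95 and 2.19 CPM in PWK, 2.10 to 3.65 in B6 and 2.89, 1.94 and 1.33 in B6129F1, which overlapped throughout, and 3.77 in DBA, the highest of the 12 libraries. Psmb10, another inducible subunit, lies outside the MHC and was lower in PWK, at 1.65 CPM on average against 9.21 in B6 (−2.48 ± 0.33, adjusted p = 0.000384) and 5.51 in B6129F1 (−1.74, adjusted p = 0.00318).

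Nlrc5 was at low levels in EpiSCs of every strain. It was at 0.233, 0.663 and 0.781 CPM in PWK, at 0 to 1.92 in B6, at 0, 0.359 and 0 in B6129F1 and at 2.58, or 69 counts, in DBA. DBA was the highest of the 12 libraries, 1.29 above the B6 mean on the log2 scale, and the change was not called in PWK (−0.43, adjusted p = 0.808) or B6129F1 (−2.61 ± 1.35, adjusted p = 0.264) against B6. Members above the B6 range in DBA were Tapbp, Psmb9 and Nlrc5, and those within it were B2m, Tap1, Tap2 and Psmb8.

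In the wider pathway, the counts per list stand beside 12% of all genes higher and 14.5% lower in PWK against B6. In PWK against B6, 1 of 16 genes of peptide supply and loading rose, the chaperone Calr (0.36 ± 0.09), and 5 fell, among them Psmb10, Tapbpl (−1.06 ± 0.28), a tapasin relative, and Psmb5 (−0.77 ± 0.10). Of 21 regulators 1 rose, Stat2 (0.95), and 3 fell, Irf1 (−1.18), Nfkb1 (−0.63) and Nfyb (−0.20). Irf1, an interferon-induced factor that acts on class I and immunoproteasome promoters, averaged 39.2 CPM in PWK and 88.7 in B6. Interferon-stimulated genes rose in 5 of 28 and fell in 1, with Mx2 (3.24), Ifit1 (2.85) and Parp14 (1.89) higher and Gbp2 (−2.69) lower. Without adjustment 10 were higher and 2 lower, and DESeq2 called 7 higher and 1 lower. In PWK against B6129F1, where B2m, Tap1 and Tapbp rose, 15 of the 28 interferon-stimulated genes rose and 2 fell, with a median of 2.04, and Ifit1 (5.31), Irf7 (4.89) and Ifit3 (4.82) were the highest. Their part in the rise of the members was not tested. In that comparison 3 regulators rose and 6 fell, 2 peptide supply genes rose and 4 fell, and 4 of the 14 other class I genes rose and 4 fell. Of all genes tested there, 20.7% were higher and 19.4% lower. Of 6 class II genes tested, 3 rose and 1 fell in DE, 1 rose and 1 fell in PWK against B6, 2 rose and 1 fell in PWK against B6129F1, and none was called in B6129F1 against B6 (edgeR, 0 higher and 1 lower without adjustment, none in DESeq2). In B6129F1 against B6, 2 regulators rose, Suz12 (0.47) and Nfyb (0.32), where 1.34% of all genes were higher and 1.50% lower. There, none of the 28 interferon-stimulated genes and none of the 16 peptide supply genes was called by edgeR, and DESeq2 called 3 and 0 lower and none higher. Without adjustment, 7 and 4 were lower and 0 and 1 higher.

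As a description over the 12 EpiSC libraries, H2-K1 and H2-D1 varied together (r = 0.804). H2-K1 had r = −0.05 with the mean of the 9 members, of which each gene is itself a part, against 0.820 for Tapbp, 0.811 for Tap1 and 0.805 for Psmb8. The 5 genes of 10451 most like that mean were Pnpla2, Unc5a, Gbp3, Hspa12a and Ckap4 (r = 0.902, 0.899, 0.897, 0.868 and 0.857). Gbp3 is an interferon-induced guanylate-binding protein gene.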

How the data were processed

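The deposited tables hold counts per gene (RNA-seq) and per peak (ATAC-seq), which the authors made with Salmon and featureCounts for RNA and with fastp, Bowtie2, MACS2 and featureCounts for ATAC on mm10, per the submitters' processing notes. Which step each tool served, and how strand and reads with several matches were treated, is not given in the sources used here. RNA was poly(A)-selected with a stranded kit, per the labels' protocols. Of the columns in the ATAC table of all EpiSCs, 17 belong to other series and were not used. PWK and B6129F1 columns whose headers match no replicate name of the labels were placed by strain and are called unnumbered here. The 5 B6 EpiSC columns are identical in both gene tables.

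Counts were tested with edgeR 4.0.16 (R 4.3.3, limma 3.58.1; filterByExpr, TMM scaling, quasi-likelihood fit over the groups of a table, Benjamini-Hochberg adjustment over all features tested), with no pairing. Alternatives were RLE or total-count scaling, other filters, DESeq2 1.42.0, 2-group fits, the replicate block and leaving out each library. Member peaks lay within 2000 bases of a member. DBA has 1 RNA library: its log2 ratios add 0.5 CPM, and its 2-fold counts use genes of mean CPM of 1 or more. The tests were also run on simulated data. Same-numbered libraries of DE and EpiSCs correlated at 0.07 to 0.20 in RNA, not above 0.1 for every pair, and they were not treated as paired in the main fit. That cutoff does not show pairing to be absent, since each library was the best match of its own number. Libraries differed by far more than counting noise (smallest chi-square per gene 10.2, per peak 2.87).

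The members and gene lists were chosen with earlier results of these data known. Named were all members, other class I genes, per list up to 3 called genes of largest change each way with mean log2 CPM of 2 or more, and the 5 genes most like the member mean. Share tests and bounds for genes at the floor were added after the data were seen. The feeder marker correlations were not part of the planned tests. One gene of the lists is not reported here by name.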

Additional observations from a re-analysis of the deposited data

Results flagged for a closer look

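Single libraries stood far from the rest of their group, by Dixon's gap criterion, in 11 of 93 groups of levels examined. Chance alone marks about 1 in 20 groups of independent, normal values. The groups here are not independent, since B6 EpiSC libraries enter from both tables and a library can stand out for several genes. The rates were therefore not compared. In RNA the flagged libraries were all DE replicate 2: B2m at 62.6 CPM, where the next DE library had 25.3, H2-D1 at 88.5, where the next had 33.9, and Psmb8 at 4.37, where the next had 0.804. In ATAC, the peak before H2-D1 was at 43.9 CPM in B6 EpiSC replicate 44 in the B6 table and at 44.5 in the table of all EpiSCs, where the next libraries had 21.1 and 20.8. The H2-K1 start peak was low in B6 EpiSC replicate 1 (15.1 CPM). A peak near Psmb9 and Tap1 was high in replicate 1 (7.36 CPM), and one near Psmb8 and Tap1 in replicate 51 (12.4 CPM). At Nlrc5, the peak at chr8:94515353-94515493 was at 0.765 CPM in EpiSC replicate 44 (3 counts), the peak at chr8:94524324-94524391 at 2.88 in DE replicate 51, and a peak starting at 94528317 at 1.01 in EpiSC replicate 44.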

How the results depend on the processing

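Of 497 values of member changes under alternatives, 438 kept their direction and side of the threshold, 29 fell short of it, 19 passed it and 11 changed sign. The number of members called in PWK against B6 was 1, and 2 under RLE scaling, total library size, at least 10 counts in every library and a fit of only the 2 groups, and 4 in DESeq2. In B6129F1 against B6 it was 2, and 1 with no filter, 4 in DESeq2 and 0 with edgeR on the 2 groups alone (4 lower without adjustment). Peaks called near members in DE numbered 4, and 9 within 10 kb, 7 by total library size and 1 at 10 counts or more; in PWK they numbered 1, and 3 within 10 kb. The cause was not tested. Leaving out 1 library gave 1 to 5 members called in DE, 1 to 3 in PWK against B6, 0 to 3 in B6129F1 against B6 and 4 to 7 DE peaks. The class I sum ranged from −0.70 to −0.10 in DE and from −0.12 to 0.0599 in B6129F1. Signs changed between −0.0340 and 0.14 for H2-K1 and −0.45 and 0.0313 for H2-D1 in B6129F1 against B6. In PWK against B6 they did for Tapbp (−0.0503 to 0.42), Psmb8 (−0.23 to 0.27) and Nlrc5 (−0.76 to 0.27), and in PWK against B6129F1 for Psmb9 (−0.21 to 0.34, and −0.0059 with no filter). With the replicate block, over DE and EpiSC libraries that share a number, 2 members were called lower, B2m (−1.71) and Psmb9 (−1.93), the class I sum was −0.55 and 5 peaks were called; the same libraries without the block gave 2 members, −0.41 and 6 peaks. Each library correlated best with its own number. Depth limits Nlrc5, Psmb8 and the small Nlrc5 peaks most.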
